A study of Rattus norvegicus with 9 samples.

Results

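The miR-183, miR-96 and miR-182 cluster is a group of microRNAs cut from 3 neighbouring hairpins. Its members were taken by name from a count table of 762 mature rat miRNAs, and all 5 named arms were present: rno-miR-183-5p, rno-miR-183-3p, rno-miR-96-5p, rno-miR-96-3p and rno-miR-182, written below without the rat prefix. All 5 had a count in some library, and 3 (miR-183-5p, miR-96-5p and miR-182) passed the filter on low counts, against 502 and 304 miRNAs of the whole table. The members were chosen by their high measured counts in 1 of the 3 groups, the H3K4me2-edited cells, so their levels there are given as a description with no test.

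The table covers 9 libraries, 3 in each of 3 groups, of vascular smooth muscle cells from rat aorta grown in culture. Edited cells had been transduced with a lentivirus that expresses a sequence called Myocardin-F-LSD1, which joins the name of a smooth muscle transcriptional co-activator to that of a histone H3 lysine 4 demethylase. PDGF-BB cells had received the growth factor PDGF-BB, a smooth muscle mitogen, at 30 ng/ml for 24 h after 24 h in serum-free medium. Differentiated cells had received no treatment, and whether they and the edited cells were also starved of serum is not stated. The titles name both the edited and the PDGF-BB cells de-differentiated. Effects of the construct and of viral transduction itself cannot be told apart, since a control with an empty lentivirus is not analysed here. No genotype, strain, clone or animal is given, and separate cultures for the replicates are not stated. The p-values therefore reflect library-to-library spread that could be technical.

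A microRNA is a short RNA that guides silencing proteins to transcripts, mainly through pairing of its seed, bases 2 to 8 from the 5′ end. The miR-183 cluster is conserved across vertebrates and is best known from sensory organs: its miRNAs are abundant in photoreceptors and in hair cells of the inner ear, and changes in the miR-96 seed cause hearing loss in human and mouse. In human cancer cells its members have been reported to act together on FOXO1, a transcription factor that restrains cell division. The table holds miRNAs alone, so no target transcript was measured.

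The mature sequences are shown because they place the members in seed groups and show which members could share reads. They are RefSeq sequences on the GRCr8 build, 5′ to 3′, with the seed in capitals, and all 5 members were matched by name.
miR-183-5p: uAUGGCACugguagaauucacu
miR-96-5p: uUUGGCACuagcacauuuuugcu
miR-182: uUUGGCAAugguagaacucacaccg
miR-183-3p: uGAAUUACcgaagggccauaa
miR-96-3p: cAAUCAUGugcagugccaauau
With positions counted from 1 at the 5′ end, miR-96-5p differs from miR-182 within the first 8 bases by C8A, and from miR-183-5p by U2A. Thus miR-96-5p and miR-182 share bases 2 to 7, while the full seed of each of the 3 is its own. Among 693 mature rat sequences searched, no miRNA outside the cluster shared bases 2 to 7 with a member. Beyond the seed the likeness runs the other way: miR-183-5p and miR-182 were identical at 18 of 22 positions, differing by A2U, C8A, U17C and U22A, whereas miR-96-5p matched miR-182 at 12 of 23. How the counting treated mismatched reads between such near-identical miRNAs is not stated.

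The hairpins lie on the minus strand of chromosome 4 in GRCr8, in the transcribed order miR-183, miR-96 and miR-182. Mir183 is at chr4:59756044-59756153, Mir96 at chr4:59755841-59755946 and Mir182 at chr4:59752246-59752307. Only 97 bases separate Mir183 from Mir96, and 3533 bases separate Mir96 from Mir182, within a span of 3908 bases that lies between the protein-coding genes Nrf1 and Ube2h. The hairpins of miR-183 and miR-96 are shown because both of their arms are in the table; capitals mark the mature arms, the 5p arm first.
Mir183: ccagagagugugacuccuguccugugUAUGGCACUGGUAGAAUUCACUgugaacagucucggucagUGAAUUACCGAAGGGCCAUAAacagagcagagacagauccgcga
Mir96: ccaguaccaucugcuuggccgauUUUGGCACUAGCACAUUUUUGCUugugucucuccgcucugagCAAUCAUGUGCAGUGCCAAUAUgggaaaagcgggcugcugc
RefSeq also places a hairpin on the opposite strand across Mir183, whose mature miRNA, miR-3553, holds the reverse complement of miR-183-5p, in capitals here.
miR-3553: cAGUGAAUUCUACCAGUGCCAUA
All 22 bases of miR-183-5p are covered by its 23 bases, and it had 0 counts over the 9 libraries, so no count at this locus was assigned to it.

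Library totals ran from 3149262 to 11392178 counts in edited, 1982051 to 3568888 in PDGF-BB and 1783409 to 3850232 in differentiated cells. Levels below are CPM, counts divided by library size, scaled by TMM factors, which correct for differences in library make-up and ran from 1.15 to 1.29, 0.912 to 1.03 and 0.847 to 0.913 in the same groups. Each value carries counting error, and a count of 0 allows up to 3 counts, or between 0.205 CPM in the deepest and 1.99 CPM in the shallowest library. As markers of smooth muscle, 7 miRNAs (arms of miR-143, miR-145, miR-1 and miR-133) summed to 37105 to 63115 CPM in edited, 133164 to 171193 in PDGF-BB and 214839 to 251386 in differentiated libraries. Nearly all of this was miR-143-3p, while miR-1-3p was at 0.392 ± 0.620, 6.54 ± 1.67 and 12.3 ± 2.596 CPM in the same groups. All 5 tested smooth muscle miRNAs fell in edited cells against differentiated and against PDGF-BB cells by edgeR, where 27.0% and 30.9% of the 304 tested miRNAs fell. In PDGF-BB against differentiated cells 3 fell, namely both arms of miR-145 and the 5p arm of miR-143, where 2.96% of tested miRNAs fell, and 0 to 5 fell without 1 library. With library totals the 5p arms did not pass, at −0.52 for miR-143-5p and −0.49 for miR-145-5p. In such bulk RNA, fewer cells of a type and less RNA per cell cannot be told apart.

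All 3 main arms were far more abundant in edited cells than in the other groups, by 8.69-fold to 14.7-fold in the edgeR fit. Over all 5 arms the cluster held 0.192% to 0.239% of the counts in edited libraries, against 0.0108% to 0.0267% in PDGF-BB and 0.00970% to 0.0166% in differentiated libraries. Its summed level was 1791 ± 250.5 CPM in edited, 186 ± 70.6 in PDGF-BB and 144 ± 34.6 in differentiated cells (SD, n = 3 each). No edited library came near a library of another group: the lowest edited sum was 1621 CPM, against a highest of 259.7 in PDGF-BB and 182 in differentiated cells.

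**Figure D1:**
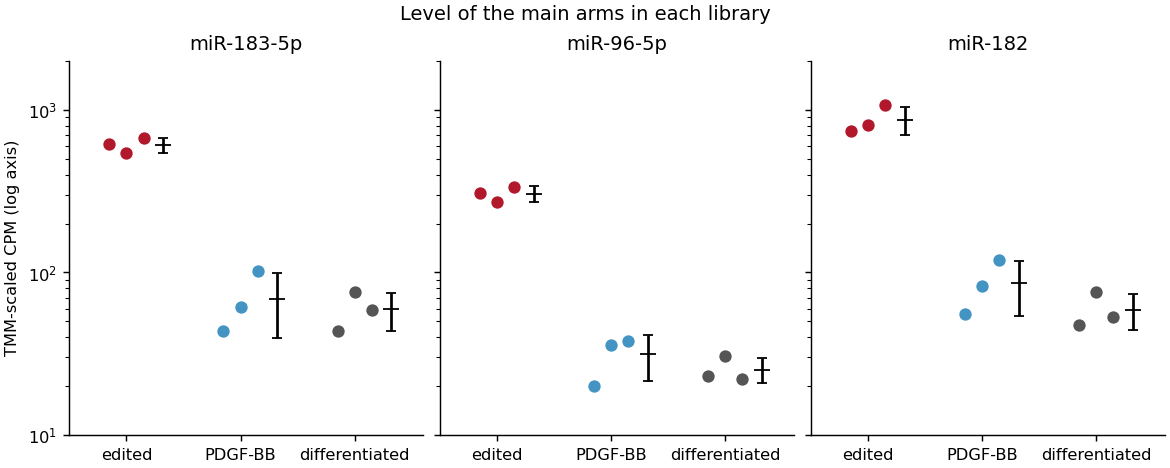
TMM-scaled CPM (log axis) of miR-183-5p, miR-96-5p and miR-182 in each library, with the mean and SD (n = 3) beside each group. Edited libraries sit between 269.8 and 1066 CPM, and every PDGF-BB and differentiated library lies at or below 119 CPM.

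miR-182 is the last hairpin of the transcript and in human cells represses FOXO1 and FOXO3. It was at 745, 809 and 1066 CPM in edited replicates 1 to 3, at 55.3, 82.6 and 119 in PDGF-BB replicates and at 47.7, 75.4 and 53.0 in differentiated replicates. All 3 edited libraries were above all others, while the PDGF-BB and differentiated libraries overlapped. By count it ranked 61st to 67th among the miRNAs of an edited library, 126th to 157th in PDGF-BB and 143rd to 162nd in differentiated libraries.

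miR-183-5p comes from the first hairpin. It was at 617, 540.4 and 671 CPM in edited, 43.7, 61.6 and 102 in PDGF-BB and 43.7, 75.4 and 59.0 in differentiated replicates 1 to 3. Edited libraries again lay apart, and the lowest PDGF-BB and the lowest differentiated library were at the same level. Group means were 609.7 ± 65.9 CPM in edited, 69.1 ± 29.8 in PDGF-BB and 59.4 ± 15.9 in differentiated cells (SD, n = 3 each).

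miR-96-5p, from the middle hairpin, is the member whose seed changes impair hearing. It was the least abundant of the 3, at 309, 269.8 and 337 CPM in edited, 19.9, 35.9 and 38.1 in PDGF-BB and 23.2, 30.4 and 22.2 in differentiated replicates 1 to 3. As with its neighbours, the edited libraries did not overlap the others, and PDGF-BB replicate 1 lay below each differentiated library. Within edited cells miR-183-5p and miR-96-5p were both lowest in replicate 2 and highest in replicate 3.

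As a description of the contrast for which the cluster was chosen, the edgeR log2 fold changes of edited over differentiated cells were 3.87 ± 0.30 for miR-182, for miR-96-5p 3.57 ± 0.24 and for miR-183-5p 3.34 ± 0.30 (± SE). These correspond to 14.7-fold, 11.9-fold and 10.1-fold higher levels. All 3 had edited libraries above all differentiated libraries, as had 31.6% of the 304 tested miRNAs. Over PDGF-BB cells, with the same edited libraries, the log2 fold changes were 3.33 ± 0.29 for miR-182, for miR-96-5p 3.26 ± 0.23 and for miR-183-5p 3.12 ± 0.29. They ranked 2nd, 3rd and 4th of the 304, and all 3 again lay above without overlap, as did 27.3% of tested miRNAs. Both sets of fold changes use the same edited libraries, so they are not separate evidence. The median of all tested miRNAs was −0.0064 and −0.022 on the same log2 scale in the 2 comparisons. With library totals as the scaling that median moved up by 0.45 over differentiated and 0.32 over PDGF-BB cells, and relative to it the members lay at 3.33 to 3.87 and 3.11 to 3.33.

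**Figure D2:**
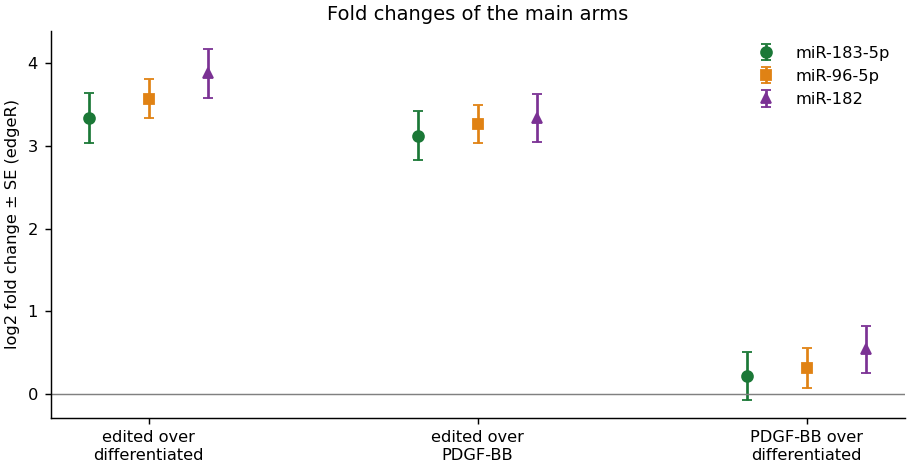
edgeR log2 fold changes ± SE of the 3 main arms for edited over differentiated, edited over PDGF-BB and PDGF-BB over differentiated cells. The values lie between 3.12 and 3.87 in both comparisons with edited cells and between 0.22 and 0.54 for PDGF-BB over differentiated cells.

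The comparison of PDGF-BB with differentiated cells does not use the levels in edited cells, and is the one in which the members were tested. The edited libraries still entered its filter, scaling and estimate of spread, since all 9 libraries shared 1 fit. None of the 3 passed. The log2 fold changes were 0.54 ± 0.28 for miR-182 (edgeR adjusted p = 0.271), 0.31 ± 0.24 for miR-96-5p (edgeR adjusted p = 0.444) and 0.22 ± 0.29 for miR-183-5p (edgeR adjusted p = 0.684). Of all 304 tested miRNAs edgeR called 31, or 10.2%, after adjustment. At an unadjusted p of 0.05 edgeR passed 0 of the 3 members and 74 of the 304. With DESeq2 after adjustment 0 of the 3 passed and 48 of the 304. In an edgeR fit of the 6 PDGF-BB and differentiated libraries alone, 0 of the 3 members passed after adjustment, and 42 of 275 miRNAs. No member had PDGF-BB libraries above all differentiated libraries, against 18.1% of tested miRNAs. A p that misses the threshold does not show that the levels were alike.

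PDGF-BB replicate 3 was the highest PDGF-BB library for each of the 3 arms. Without it the log2 fold change was 0.22 for miR-182, with 0.14 for miR-96-5p and −0.18 for miR-183-5p, so the sign for miR-183-5p turned. Without differentiated replicate 2, the highest differentiated library for all 3, the same values were 0.78, 0.49 and 0.45, and without PDGF-BB replicate 1, the lowest PDGF-BB library, 0.76, 0.52 and 0.45. They did not pass either (edgeR adjusted p = 0.108 at the lowest). Without differentiated replicate 1 they were 0.43, 0.27 and 0.070, and without differentiated replicate 3 they were 0.43, 0.18 and 0.17. With PDGF-BB replicate 2 left out they were 0.58, 0.22 and 0.31. PDGF-BB replicate 3 and differentiated replicate 2 were also the deepest libraries of their groups. Of all tested miRNAs 23.7% were highest in both of these libraries, and in edited cells the deepest library, replicate 2, was the lowest for miR-183-5p and miR-96-5p. The part of depth in these levels was not tested.

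**Figure D3:**
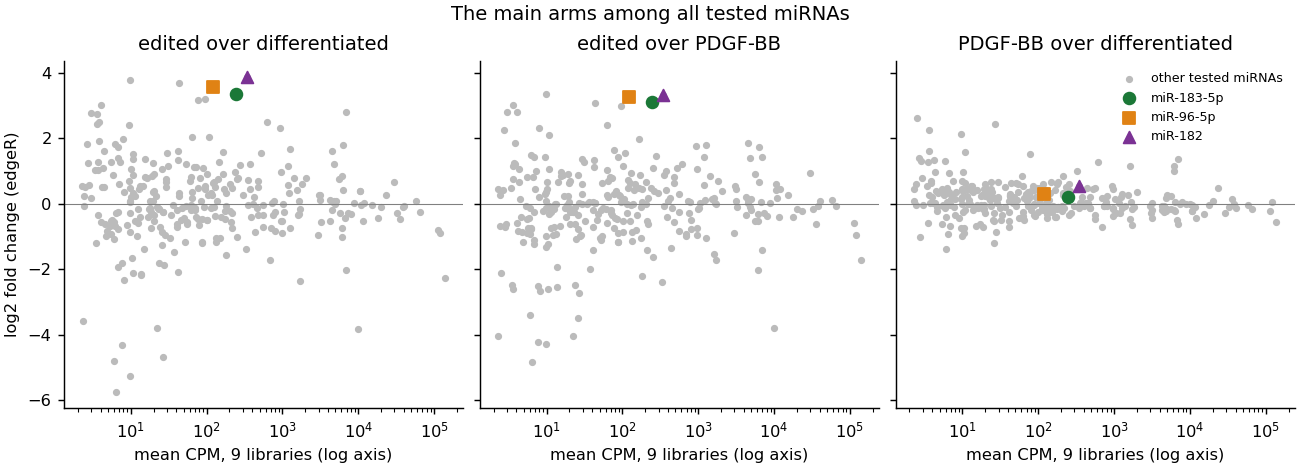
edgeR log2 fold change against mean CPM over the 9 libraries (log axis) for the 304 tested miRNAs, one panel per comparison, with the 3 main arms marked. The members lie near the top of both comparisons with edited cells, at 3.12 to 3.87, and inside the cloud of other miRNAs, at 0.22 to 0.54, for PDGF-BB over differentiated cells.

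The star arms, the partner strands that are usually degraded, were nearly absent. miR-183-3p had 10, 31 and 35 counts in edited, 0, 0 and 3 in PDGF-BB and 0, 2 and 0 in differentiated replicates 1 to 3. Edited libraries were at 2.77, 2.11 and 4.14 CPM. The 3 counts of PDGF-BB replicate 3 are 0.817 CPM and the 2 counts of differentiated replicate 2 are 0.569 CPM, while the libraries with 0 counts allow up to 1.66 CPM in PDGF-BB replicate 1 and up to 1.99 CPM in differentiated replicate 1, close to the lowest edited library. It did not pass the filter on low counts, so no fold change was fitted. From summed counts its level was 9.77 times as high in edited as in differentiated cells (95% exact counting interval 2.61 to 82.1) and 7.54 times as high as in PDGF-BB cells (2.49 to 37.4), intervals that cover counting error only. miR-96-3p had 4 counts in all, 2 each in edited replicates 2 and 3, and 0 in every other library. Its 0.150 CPM over the edited libraries lies under the 0.377 and 0.436 CPM that 0 counts allow over the PDGF-BB and differentiated libraries, so no difference was detectable at this depth.

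The balance of strands within a hairpin can be read within a library, free of scaling. The 3p arm held 0.478% of the miR-183 counts in edited cells (95% exact interval 0.376 to 0.597), 0.493% in PDGF-BB cells (0.102 to 1.43) and 0.452% in differentiated cells (0.0548 to 1.62). These shares lie within one another's intervals, so any difference between groups was not detectable at this depth. For miR-96 the 3p arm held 0.0504% in edited cells (0.0137 to 0.129), with 0 of 265 counts in PDGF-BB cells, which allows up to 1.13%, and also 0 in differentiated cells, where the lower depth allows up to 1.64%. In edited cells, where counts were highest, the interval for miR-96 lay below that for miR-183.

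The proportions of the 3 main arms describe how far the hairpins moved together. miR-182 held 44.6%, 49.96% and 51.4% of their counts in edited replicates 1 to 3, 46.5%, 45.9% and 46.0% in PDGF-BB replicates and 41.6%, 41.6% and 39.5% in differentiated replicates. Every PDGF-BB and every edited library thus had a larger miR-182 share than any differentiated library. The 95% exact intervals of PDGF-BB and differentiated libraries overlapped, as at 39.7% to 53.4% in PDGF-BB replicate 1 and 34.2% to 49.3% in differentiated replicate 1. miR-183-5p held 34.2% ± 2.40 in edited, 36.8% ± 2.55 in PDGF-BB and 41.2% ± 2.92 in differentiated cells, and miR-96-5p 17.1% ± 1.20, 17.1% ± 2.62 and 17.9% ± 2.06 (SD, n = 3 each).

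**Figure D4:**
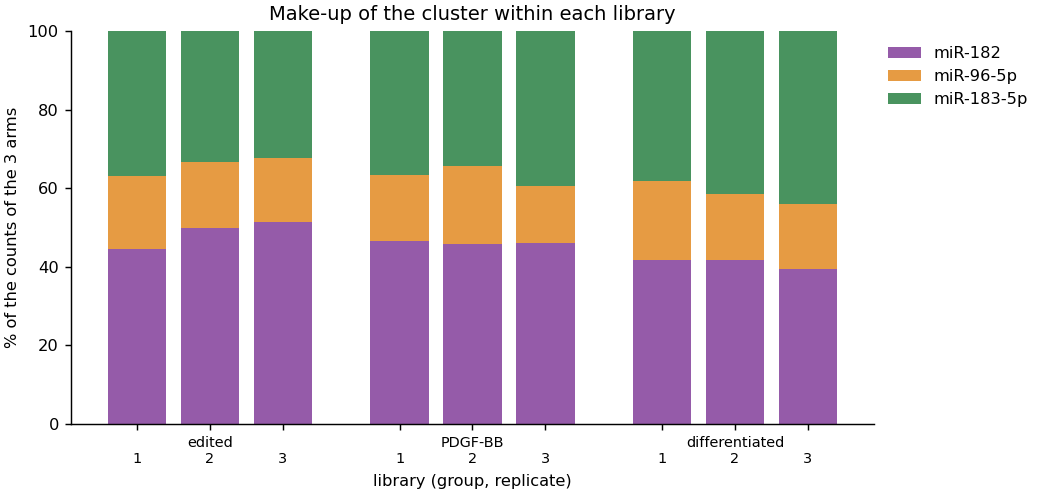
Share (%) of each main arm, miR-182, miR-96-5p or miR-183-5p, in the summed counts of the 3 arms, one bar per library. The miR-182 share is 44.6% to 51.4% in edited, 45.9% to 46.5% in PDGF-BB and 39.5% to 41.6% in differentiated libraries.

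The ratio of miR-182 to miR-183-5p, the last to the first hairpin, was 1.21, 1.497 and 1.59 in edited, 1.27, 1.34 and 1.17 in PDGF-BB and 1.09, 1.00 and 0.899 in differentiated replicates 1 to 3. Neither the edited nor the PDGF-BB values overlapped the differentiated ones. Counting error alone gives this log2 ratio an SD of 0.021 to 0.041 in an edited, 0.10 to 0.22 in a PDGF-BB and 0.13 to 0.25 in a differentiated library. Between PDGF-BB and differentiated cells the log2 ratio differed by 0.34, with p = 0.10 in a two-sided exact permutation test, the smallest p that 3 against 3 libraries allow, and 0.35 after adjustment over the 7 within-cluster measures tested. The miR-182 share, 5.20 percentage points higher in PDGF-BB than in differentiated cells, gave the same exact permutation p of 0.10 and the same adjusted value. The other 5 measures had exact permutation p-values from 0.20 to 1.0.

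The ratio of miR-96-5p to miR-183-5p, whose hairpins are 97 bases apart, was 0.501, 0.499 and 0.502 in edited replicates 1 to 3, where a library held 1117 to 3958 counts of miR-96-5p. It was 0.456, 0.582 and 0.374 in PDGF-BB and 0.530, 0.404 and 0.376 in differentiated replicates, where a library held 35 to 140 such counts. The log2 ratio had an SD of 0.0037 in edited, 0.32 in PDGF-BB and 0.26 in differentiated cells. Counting error alone gives this log2 ratio an SD of 0.028 to 0.053 in an edited, 0.14 to 0.29 in a PDGF-BB and 0.17 to 0.30 in a differentiated library. The spread among edited libraries is thus smaller than these counts can resolve, and a tighter ratio in edited cells cannot be read from it. The ratio of miR-182 to miR-96-5p, across the gap of 3533 bases, was 2.41, 2.998 and 3.16 in edited replicates 1 to 3, a log2 SD of 0.21, where counting error gives 0.026 to 0.051.

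Other hairpin clusters give a yardstick for this spread. In 7 clusters of the table at least 3 hairpins within 10000 bases of a neighbour on 1 strand had a tested arm. The fold changes within the miR-183 cluster spanned 0.54 on the log2 scale for edited over differentiated cells, the third smallest span of the 7, 0.21 over PDGF-BB cells, the second smallest, and 0.32 for PDGF-BB over differentiated cells, the fourth. These spans are a description, since clusters differ in size and depth.

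The 5 miRNAs nearest to the cluster in pattern were miR-296-3p, miR-298-5p, miR-296-5p, miR-211-5p and miR-190a-5p. Nearness is the root mean square distance of log2 CPM, centred on each miRNA's mean, from the mean of the 3 main arms over the 9 libraries. The distance was 0.11 to 0.14 for the members themselves, 0.38, 0.47 and 0.50 for the first 3 and 0.70 and 0.74 for the last. The members are near by construction, since the distance is taken from their own mean, and the edited libraries whose high values chose the cluster weigh most in it. The same 5 were nearest without edited replicate 1, at 0.33 to 0.58. miR-296-5p had 789 counts in edited, 20 in PDGF-BB and 13 in differentiated cells, and miR-211-5p 203, 8 and 7. Both passed the filter on low counts only through the edited libraries, so a high level there was a condition of their being ranked.

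The neighbours had their own order among the edited libraries. miR-296-3p was at 70.3 CPM in edited replicate 1 and at 133 and 127 in edited replicates 2 and 3, against 12.2, 14.9 and 12.5 in PDGF-BB and 6.62, 9.96 and 8.11 in differentiated replicates 1 to 3. miR-298-5p showed 164, 275 and 249 CPM in the edited replicates, and miR-190a-5p 1211, 2034 and 2374. All 5 neighbours were lowest in edited replicate 1, as was miR-182, whereas miR-183-5p and miR-96-5p were not. None of the 5 passed in PDGF-BB against differentiated cells, where 10.2% of the 304 tested miRNAs passed. The log2 fold change of miR-296-3p in that comparison was 0.63 (edgeR adjusted p = 0.260).

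**Figure D5:**
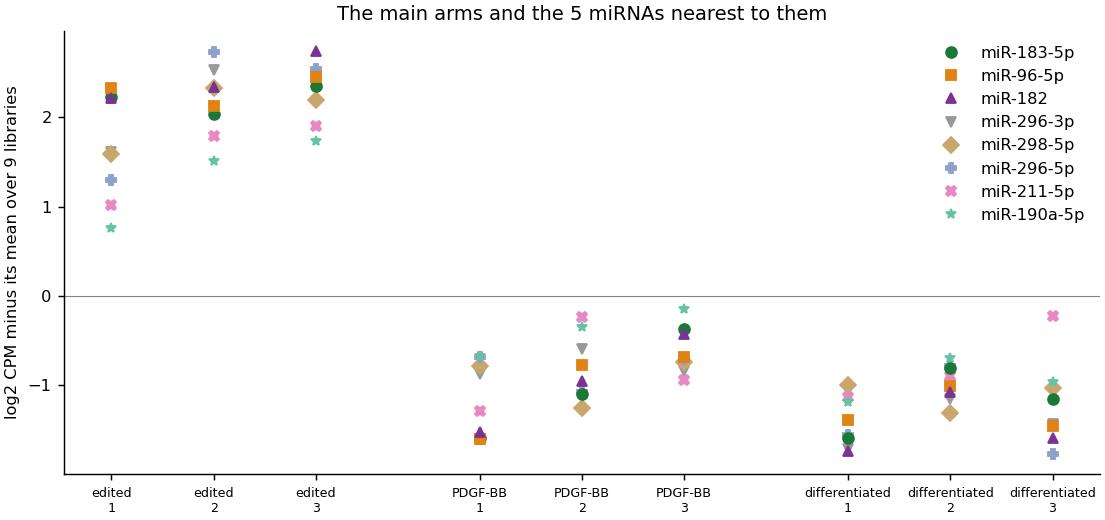
log2 CPM minus its mean over the 9 libraries for the 3 main arms and the 5 miRNAs nearest to them, by library. In edited replicate 1 the main arms stand above the 5 neighbours, which include miR-296-3p at 70.3 CPM there against 133 and 127 CPM in edited replicates 2 and 3.

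Other miRNAs of retina and sensory organs were examined as the cluster's best known company. Of a list of 7, 6 were tested: 5 rose and 1 fell in edited against differentiated cells by edgeR, with a median log2 fold change of 1.24, where 32.2% of all tested miRNAs rose and 27.0% fell. miR-9a-5p, a neural and retinal miRNA, rose to 133 ± 2.83 CPM in edited cells, against 32.4 ± 3.66 in differentiated cells. miR-204-5p, of retinal pigment epithelium, rose to 1150 ± 571 CPM in edited cells, against 207 ± 79.5 in differentiated cells. Its sister miR-211-5p rose to 6.92 ± 2.19, against 1.05 ± 0.51. In PDGF-BB cells miR-9a-5p, miR-204-5p and miR-211-5p were at 25.1 ± 2.89, 496 ± 105 and 0.994 ± 0.551 CPM, so miR-204-5p lay between the other groups. miR-211-5p had 203 counts in edited, 8 in PDGF-BB and 7 in differentiated cells. It passed the filter on low counts only through the edited libraries, so its call is not separate from that filter. Its differentiated level lies within the 0.854 to 1.99 CPM that 0 counts allow in those libraries. The miRNA that fell was miR-125b-5p, which is abundant in most mesenchymal cells. Without 1 library, 3 to 5 rose: miR-181a-5p and miR-181b-5p each lost the call without differentiated replicate 2 (log2 fold changes 0.43 and 0.35), differentiated replicate 3 (0.37 and 0.27) or edited replicate 2 (0.43 and 0.34), against 0.46 and 0.32 with all libraries. miR-124-3p, the neuronal and retinal member of the list, had 0 counts in all 9 libraries.

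In PDGF-BB against differentiated cells 1 of these 6 rose, miR-181b-5p, with a log2 fold change of 0.61 ± 0.11 (edgeR adjusted p = 0.00917), beside 7.24% of tested miRNAs that rose and 2.96% that fell. Without differentiated replicate 3 it did not pass, at 0.53. The median of the list was 0.053, and that of all tested miRNAs 0.031.

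A further list held 15 miRNAs reported to act on FoxO1 or FoxO3 transcripts in human or mouse cells, apart from the cluster. Of its 10 tested members 2 rose and 6 fell in edited against differentiated cells, with a median log2 fold change of −0.77, where 32.2% of all tested miRNAs rose and 27.0% fell. The miRNAs named next for edited cells were picked out after their values were seen. miR-27b-3p (1.61 ± 0.19) and miR-9a-5p (2.03 ± 0.14) rose, and miR-21-5p (−0.81 ± 0.15), miR-155-5p (−0.73 ± 0.12), miR-132-3p (−1.56 ± 0.41), miR-212-3p (−1.64 ± 0.39), miR-221-3p (−1.02 ± 0.16) and miR-222-3p (−1.40 ± 0.20) fell. With library totals 4 rose and 5 fell, and miR-155-5p did not pass, at −0.28. In PDGF-BB against differentiated cells 3 of the 10 rose, miR-221-3p (1.01 ± 0.16), miR-222-3p (0.99 ± 0.20) and miR-29a-3p (0.50 ± 0.12), where 7.24% of all tested miRNAs rose, and the count was 0 (without differentiated replicate 3) to 5 (without edited replicate 1) when 1 library was left out. With relative log expression factors miR-29a-3p did not pass, at 0.44. Without differentiated replicate 3 none of the 3 passed, at 0.88, 0.93 and 0.44. Without differentiated replicate 2 or PDGF-BB replicate 1 miR-222-3p (0.80 and 0.86) and miR-29a-3p (0.45 and 0.43) did not pass, and without PDGF-BB replicate 2 they did not pass either (0.97 and 0.47).

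Because the cluster is abundant in neural, sensory and epithelial cells, markers of other cell types were summed. Neural markers, of which 6 of 8 had counts, summed to 1609 to 1848 CPM in edited, 2382 to 2643 in PDGF-BB and 2043 to 2211 in differentiated libraries. Most of this was miR-218a-5p, at 802 ± 53.3 CPM in edited, 1645 ± 124 in PDGF-BB and 1345 ± 41.3 in differentiated cells, and miR-128-3p. miR-128-3p was at 801 ± 102, 780 ± 38.9 and 753 ± 64.3 CPM in the same groups. Of these markers miR-9a-5p and miR-9a-3p rose in edited against differentiated cells, miR-218a-5p fell (−0.75 ± 0.097) and 3 did not pass. Of all tested miRNAs 32.2% rose and 27.0% fell in that comparison. With library totals miR-218a-5p did not pass, at −0.296. In PDGF-BB against differentiated cells miR-129-5p rose, with a log2 fold change of 2.25 ± 0.42, where 7.24% of all tested miRNAs rose. It had 66 counts in PDGF-BB and 12 in differentiated cells, and passed the filter on low counts only through the PDGF-BB libraries. Without differentiated replicate 3 it did not pass, at 2.199. Endothelial markers, both arms of miR-126a, summed to 2905 to 3346 CPM in edited, 1791 to 1895 in PDGF-BB and 1760.0 to 2145 in differentiated libraries. Blood markers, with counts for 7 of 7, summed to 76.1 to 98.4 CPM in edited, 49.0 to 64.7 in PDGF-BB and 47.6 to 72.8 in differentiated libraries. Both endothelial arms rose in edited against differentiated cells, as did 1 of 3 tested blood markers, miR-150-5p (log2 fold change 1.35 ± 0.28), where 32.2% of all tested miRNAs rose. miR-150-5p made up most of the blood sum in edited cells, at 67.9 ± 15.5 CPM, against 26.9 ± 10.1 in differentiated cells. The other tested blood markers did not pass, with miR-142-3p at 16.7 ± 3.69 CPM in edited and 23.9 ± 3.94 in differentiated cells and miR-142-5p at 3.46 ± 0.571, against 5.65 ± 2.10. The part of endothelial or blood RNA in the level of the cluster was not tested.

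Epithelial markers, with counts for 9 of 10, summed to 297 to 376 CPM in edited, 422 to 493 in PDGF-BB and 450.2 to 519 in differentiated libraries. Most of this was miR-192-5p and miR-194-5p, at 175 ± 22.9 and 129 ± 6.44 CPM in edited and 211 ± 28.6 and 172 ± 19.3 in differentiated cells. Of 8 tested markers 3 rose and 4 fell in edited against differentiated cells, where 32.2% of all tested miRNAs rose and 27.0% fell. Without 1 library 2 to 3 rose and 3 to 4 fell. Besides the miR-200 family, miR-203a-3p rose (1.91 ± 0.61) and miR-194-5p fell (−0.41 ± 0.15). miR-203a-3p had 213 counts in edited, 23 in PDGF-BB and 12 in differentiated cells. It missed the filter on low counts without edited replicate 2 or 3, so its call is not separate from that filter. Without differentiated replicate 2 it did not pass, at 1.37. With library totals miR-194-5p did not pass, at 0.042, where its sign turned. Nor did it without differentiated replicate 1 or 3, PDGF-BB replicate 2 or any 1 edited library (−0.32 to −0.40). Within this list the miR-200 family split: miR-200c-3p (9.30 ± 4.87 CPM in edited, 1.39 ± 0.74 in differentiated cells) and miR-141-3p (log2 fold change 1.97 ± 0.44), neighbours in 1 cluster, rose in edited against differentiated cells, while miR-200a-3p (−4.69 ± 0.35), miR-200b-3p (−4.79 ± 0.56) and miR-429 (−5.25 ± 0.42), of the other cluster, fell. These 5 were singled out after their values were seen. miR-200c-3p had 302 counts in edited, 11 in PDGF-BB and 8 in differentiated cells. It passed the filter on low counts only through the edited libraries. Its differentiated level lies within the 0.854 to 1.99 CPM that 0 counts allow in those libraries. In turn, miR-200b-3p and miR-429 had only 11 and 12 counts in edited cells. In PDGF-BB against differentiated cells 1 of the 8, miR-200a-3p, fell (−1.20 ± 0.296), where 2.96% of all tested miRNAs fell. That call was lost without any 1 of the 6 libraries compared (−1.03 to −1.37). Defining markers of neurons, miR-124-3p and miR-137-3p, and of neuroendocrine cells, miR-375-3p, were at 0 counts in all 9 libraries. miR-7a-5p, the tested miRNA of the neuroendocrine list, was at 942 ± 46.9 CPM in edited, 2703 ± 137.2 in PDGF-BB and 1208 ± 77.7 in differentiated cells, an order unlike that of the cluster.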

How the data were processed

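RNA was isolated with a miRNeasy kit and made into QIAseq small RNA libraries, per the labels' protocols, and sequenced in single 75 nt reads. Per the submitters' processing notes, the build was Rnor_6.0. No source used here names the aligner, the counting tool or any use of molecular identifiers. The authors deposited whole-number counts for each mature miRNA, without normalization.

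The 9 libraries, grouped by their titles, entered one edgeR 4.0.16 quasi-likelihood fit (R 4.3.3) with 1 coefficient for each group. TMM scaling and edgeR's expression filter (minimum count 10) were used, and the filter left out 198 miRNAs with a count. P-values were adjusted by Benjamini-Hochberg over 304 miRNAs with a threshold of 0.05. Standard errors were derived from the fold change and its F statistic. Shares carry Clopper-Pearson 95% intervals, which cover counting error only. Star arms were too rare for log2 ratios, so shares of the 3p arm are given in their place. Nearness used log2 CPM with a prior count of 2. Alternatives were library totals, relative log expression factors, no filter, DESeq2 1.42.0, 6 libraries, a replicate block, leaving out each library, and thinning. The edgeR script was tested on simulated data. Members and lists were chosen with earlier results of these data known. By rule, named miRNAs were the members, the 5 nearest in pattern, and in each list those past the threshold in PDGF-BB against differentiated cells and the 2 most abundant. Those called in edited cells were added after their values were seen, as were the nearness alternatives and leaving out libraries for the ratios. Sequences are from RefSeq (GRCr8), with 686 of 762 miRNAs matched. No replicate pair matched within counting noise (chi-square per degree of freedom at least 15.0).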

Additional observations from a re-analysis of the deposited data

How the results depend on the processing

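In PDGF-BB against differentiated cells 0 members passed under each of the 15 alternatives, with adjusted p from 0.108 to 0.943, edgeR or DESeq2. The log2 fold change ranged over these alternatives from 0.22 to 0.78 for miR-182, 0.14 to 0.52 for miR-96-5p and −0.18 to 0.45 for miR-183-5p, whose sign turned without PDGF-BB replicate 3 (−0.18). The cause was not tested. The count over all miRNAs was 31 in the fit as reported and 48 with DESeq2, and it ran from 3 (without differentiated replicate 3) to 53 (without edited replicate 1) when 1 library was left out. It was 12 to 18 without any other PDGF-BB or differentiated library. The summed cluster level, as a log2 difference of edited from differentiated cells, was 3.64 and moved to 4.08 with library totals. That scaling shifts the median of all miRNAs by 0.45. Without 1 library it ran from 3.55 to 3.87. From PDGF-BB cells it was 3.27, with 3.05 to 3.58 without 1 library, and for PDGF-BB over differentiated cells 0.38, with 0.061 to 0.61. With the replicate number as a block, 0 members passed (miR-182 at 0.50, adjusted p = 0.178). Deviations of same-numbered libraries correlated above 0.1 in 4 of 9 pairs, at −0.046 to 0.46, so the numbers are not taken to pair the samples. Depth limits the star arms, with at most 3 counts in a PDGF-BB or differentiated library, and the proportions in those libraries, which rest on 173 to 951 counts.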
